A study of Mus musculus with 16 samples.

Results

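The contractile genes of smooth muscle were followed through the cell types of diabetic and control mouse kidneys. Their 10 members were taken by symbol from the 31053 genes counted in every library, and all 10 were found. They were the smooth muscle actins Acta2 and Actg2, the actin-binding proteins Tagln (transgelin) and Cnn1 (calponin 1), the myosin subunits Myh11 (heavy chain) and Myl9 (regulatory light chain), the tropomyosins Tpm1 and Tpm2, the intermediate filament protein Des (desmin) and Filip1l, a protein named for its likeness to a filamin A-interacting protein. The question was which cells carried them, whether few or many mesangial cells did so, and whether this differed between genotypes, ages and cell classes.

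The values were counts of unique molecular identifiers (UMIs, 1 per captured RNA molecule) in single cells of 16 kidney libraries, each from 1 mouse. Diabetic nephropathy (DN) mice were BTBR ob/ob, which carry a leptin gene mutation and become obese and diabetic, and control mice were BTBR +/+. Each genotype had 2 females and 2 males at 6 weeks, the onset of disease, and again at 12 weeks, its early stage. Mice of both genotypes also carried a fluorescent ROSA26 reporter switched on by a podocyte-specific Cre. The ob mutation is present in every organ, so effects of diabetes, obesity and missing leptin cannot be told apart by genotype. The papilla was removed, and tissue from both kidneys was enriched for glomeruli by a density gradient that discards proximal tubule.

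In smooth muscle, force comes from myosin pulling on actin filaments once the regulatory light chain is phosphorylated. Tropomyosin lies along the filament, calponin and transgelin bind to it, and desmin ties the contractile units together. Many of these genes are read out by serum response factor (SRF), a DNA-binding protein that sits on a short element called the CArG box and works with cofactors of the myocardin family. Mesangial cells are the pericyte-like cells that hold the capillary loops of the glomerulus; they contract, and smooth muscle actin in them is a widely used sign of an activated cell. Renin cells of the afferent arteriole are specialised smooth muscle cells and share much of this program.

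The CArG box is CC, then 6 bases that are each A or T, then GG, a pattern that reads the same on both strands. It was searched in RefSeq promoter windows of GRCm38.p6 (250 bases before to 50 after each start), which held 8 windows for 7 of the 10 members. Tagln, Myh11 and Actg2 had no entry. The box was present in Myl9 and in 1 of the 2 Filip1l starts, against 535 of 32851 promoters overall (1.63%). Elements with 1 C or G inside the core were added to the search because Acta2 carries that form, and 3280 promoters (9.98%) held either form, while 270 (0.822%) held 2 or more. The windows of Des, Tpm2, Cnn1, Tpm1 and the other Filip1l start held neither form. The stretches of the 3 members that held one are shown, with the elements in capitals, so that their letters can be compared. Myl9 lies at chr2:156775278-156775399 on the plus strand, with elements starting 161 and 99 bases before the start of transcription, and Filip1l at chr16:57549155-57549214 on the plus strand, 62 bases before. The Acta2 elements, at chr19:34255438-34255467 and chr19:34255388-34255417 on the minus strand, start 84 and 34 bases before. The stretch around them overlaps an annotated GENCODE exon.
Myl9: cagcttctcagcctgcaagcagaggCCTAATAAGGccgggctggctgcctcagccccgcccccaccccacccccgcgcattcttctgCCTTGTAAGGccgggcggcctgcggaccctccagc
Filip1l: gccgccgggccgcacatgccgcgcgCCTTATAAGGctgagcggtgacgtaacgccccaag
Acta2, upstream element: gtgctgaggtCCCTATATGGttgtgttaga
Acta2, downstream element: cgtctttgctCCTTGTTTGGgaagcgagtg
A match describes the letters in these windows and is not a measured binding site.

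Libraries differed in depth, which bears on any share of cells with a UMI. Replicate 1 of the 4 female groups held between 10510855 and 21728793 UMIs and used another barcode list than the other 12 libraries, which held between 83410397 and 125551519. Libraries shared at most 55 cell barcodes, which was 1.43% of the smaller library of that pair. Of 116439 barcodes, 85266 were kept and grouped without using any member's counts, and clusters were named from markers that are not members. This left 4026 mesangial-like cells, 1432 smooth muscle-like, 195 renin-like, 1173 podocyte-like, 7820 endothelial-like and 62146 tubule-like cells. UMIs of a class were summed within each library and given as CPM, counts scaled to an equal total for every sum. Because the method counts 1 end of each transcript, CPM is not divided by gene length, and levels were compared within a gene only.

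The full contractile program lay in smooth muscle-like and renin-like cells. Acta2, on the minus strand of chr19:34241090-34255590 (GRCm38), had a median of 12500 CPM over 16 smooth muscle-like sums, from 8629 to 20310, and 11640 CPM over 9 renin-like sums, from 7410 to 18490, so those ranges overlapped. Its median fell to 92.4 CPM in mesangial-like cells, with a range from 3.48 to 419, to 47.1 in endothelial-like, 9.62 in podocyte-like and 4.59 in tubule-like cells. The mesangial, endothelial and podocyte ranges overlapped, whereas none of them reached the smooth muscle range. Smooth muscle-like cells were 1.68% of the kept cells and held 81.6% of all 180028 Acta2 UMIs, and mesangial-like cells, 4.72% of the cells, held 2.62%. These levels describe classes that were built from the same cells and were not tested.

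Tagln, Cnn1, Myh11 and Actg2 had between 85.2% and 88.0% of their UMIs in smooth muscle-like cells. Tagln (chr9:45929619-45936058, minus strand) had a median of 10600 CPM in smooth muscle-like and 9399 in renin-like cells, against 45.7 in mesangial-like and 47.1 in podocyte-like cells. Cnn1 (chr9:22099216-22109630) had medians of 524.6 and 452.1 CPM in smooth muscle-like and renin-like cells, and only 2 of its UMIs fell in the 4026 mesangial-like cells. Myh11 (chr16:14194535-14291372) had 4399 CPM in smooth muscle-like, 2898 in renin-like and 1.14 in mesangial-like cells. Actg2, the enteric smooth muscle actin (chr6:83512905-83536265), was sparse throughout, with 204 of 232 UMIs in smooth muscle-like cells, where it ranged from 0 to 77.5 CPM. For Tagln, Cnn1 and Myh11 the ranges of smooth muscle-like and renin-like cells overlapped and no mesangial-like sum reached either, whereas the Actg2 ranges of all 6 classes began at 0.

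The other members were shared more widely with the mesangium. Myl9 (chr2:156775420-156781658) was lower in mesangial-like cells (median 1676 CPM, from 936 to 2541) than in smooth muscle-like cells (6199, from 4469 to 8736), without overlap, but the larger number of mesangial-like cells still held 32.8% of its UMIs. Tpm1 (chr9:67022590-67049406) had 656 CPM in mesangial-like and 3570 in smooth muscle-like cells, with 332 in podocyte-like, 135 in endothelial-like and 106 in tubule-like cells, so it was the member most evenly found outside muscle. Tpm2 (chr4:43514711-43523765) had 346.9 CPM in mesangial-like and 4492 in smooth muscle-like cells and was near 0 in epithelium. Filip1l (chr16:57353093-57573126, overlapping Cmss1) was similar in mesangial-like (66.0 CPM) and endothelial-like cells (95.8), with overlapping ranges, and highest in smooth muscle-like cells (1746). Des (chr1:75360329-75368579) ran the other way: its median was 692 CPM in mesangial-like cells, 327 in smooth muscle-like and 214 in renin-like cells, and 64.3% of its UMIs were mesangial. The mesangial range of Des, from 432 to 889 CPM, overlapped narrowly with that of smooth muscle-like cells, from 215 to 455.

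**Figure D1:**
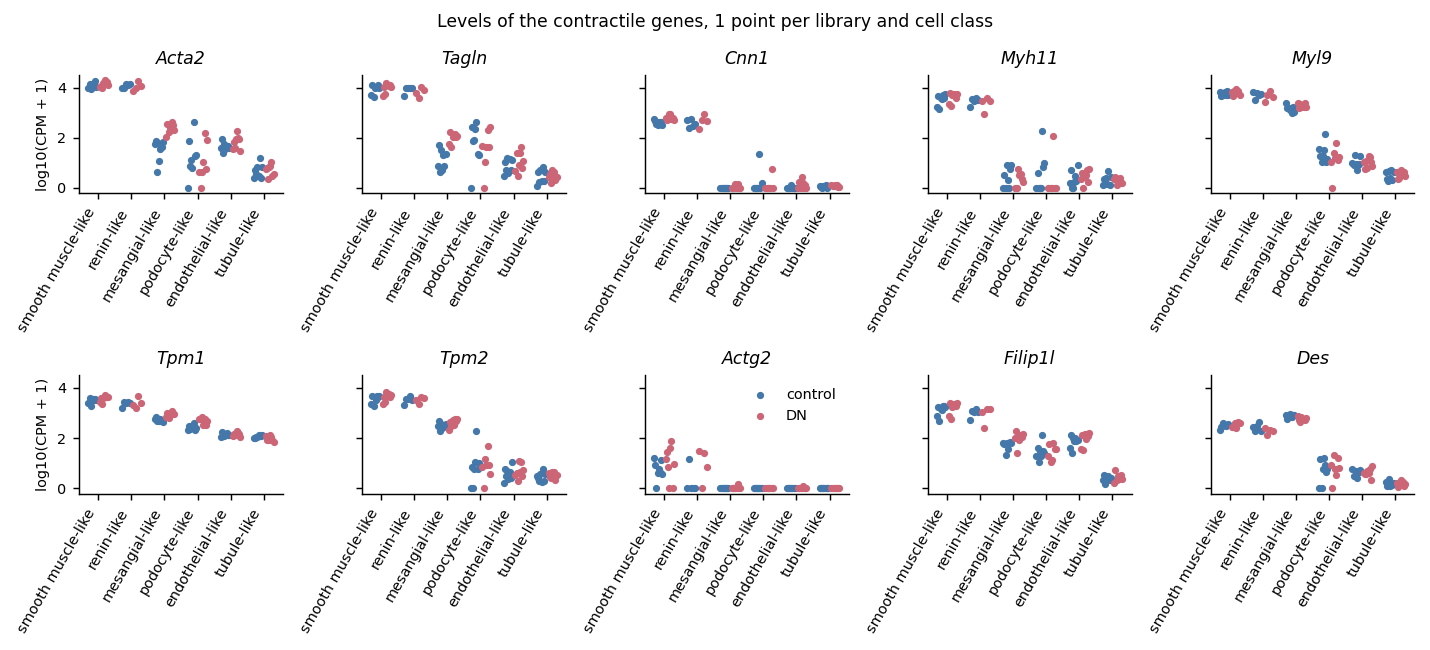
The log10 of CPM + 1 of each member in every library with a sum of at least 10 cells, by cell class and genotype; each point is 1 library. Acta2, Tagln, Cnn1 and Myh11 separate smooth muscle-like and renin-like cells from the rest, and Des is highest in mesangial-like cells, with a median of 692 CPM.

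Smooth muscle-like cells were not uniform. Sub-clusters rich in Ndufa4l2, a gene often high in pericytes, held 554 of the 1432 cells. They had a median of 43.8 CPM of Cnn1, 6985 of Acta2 and 442 of Des, against 711, 14040 and 254 CPM in the other 878 cells. Ren1 had a median of 925 CPM in the Ndufa4l2-rich cells and 8277 CPM, up to 38430, in the others. The part of renin marker RNA in the smooth muscle-like values was not tested. The Cnn1 ranges were from 0 to 118.7 and from 448.1 to 1272 CPM, so they did not overlap. The Ndufa4l2-rich sub-clusters made up between 24.1% and 41.6% of smooth muscle-like cells in control and between 35.3% and 45.8% in DN libraries at 6 weeks, and between 31.6% and 43.6% in control and between 49.2% and 53.6% in DN at 12 weeks, where the genotypes did not overlap.

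In mesangial-like cells of DN kidneys, Acta2 and Tagln were higher in every library than in any control library of the same age. At 6 weeks, Acta2 was 53.2, 74.9, 10.9 and 35.4 CPM in control (female 1 and 2, male 1 and 2) and 109.8, 354.3, 285.1 and 418.8 CPM in DN. At 12 weeks it was 3.48, 63.2, 43.2 and 68.8 CPM in control and 168.7, 254.7, 312.5 and 199.3 CPM in DN. The control values rest on few molecules. In the same order they came from 16, 69, 10 and 14 UMIs in 170, 150, 153 and 58 cells at 6 weeks. At 12 weeks they came from 1, 92, 77 and 80 UMIs in 110, 241, 384 and 314 cells. The DN libraries held from 35 to 959 Acta2 UMIs at 6 weeks and from 71 to 1318 at 12 weeks. The genotypes did not overlap at either age, and the lowest DN value at each age came from the shallow female library. Group means were 43.6 ± 27.1 CPM in control and 292 ± 133 in DN at 6 weeks, and 44.7 ± 29.6 and 234 ± 63.4 at 12 weeks (SD, n = 4). These levels remained far under the 8629 CPM that was the lowest smooth muscle-like value. The class held 2 clusters, and the separation was seen in the larger one, with 3327 cells: Acta2 was 11.01 to 75.1 CPM in control and 114.5 to 423.9 in DN at 6 weeks, and 3.76 to 64.3 and 170.7 to 314.7 at 12 weeks. In the smaller cluster, with 699 cells, the genotypes overlapped, from 0 to 63.2 CPM in control and from 0 to 232 in DN at 6 weeks, and from 0 to 253 and from 49.8 to 247.5 at 12 weeks. Its medians were 0 and 155.5 CPM at 6 weeks and 51.2 and 106.6 at 12 weeks. At 6 weeks it held only 49 control and 133 DN cells over 4 libraries each, so its values rest on few cells. Whether the 2 clusters differ was not tested.

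The difference in Acta2 passed edgeR's quasi-likelihood test at both ages. It was 2.87 ± 0.53 on the log2 scale at 6 weeks (SE, edgeR adjusted p = 0.0226) and 2.31 ± 0.48 at 12 weeks (edgeR adjusted p = 0.00914). This test reports no SE, so each SE of an edgeR difference was derived as the log2 difference over the square root of the test's F. Of 9362 genes tested, 0.352% were called at 6 weeks and 3.18% at 12 weeks (0.278% and 2.23% called higher in DN). Deviations of same-numbered mice of both genotypes correlated at 0.27 to 0.50, but the labels give only a replicate number and name no pairing. With the number as a block Acta2 differed by 2.93 (edgeR adjusted p = 1.386e-05) and 2.30, with 4.17% and 12.9% of genes called. Values with this block, here and below, rest on a pairing that the labels do not show. In the 12 deep libraries alone the difference was 3.31 (edgeR adjusted p = 0.0035) and 2.19 (edgeR adjusted p = 0.0022). The 4 shallow libraries give 1 mouse per group and no test, at 53.2 against 109.8 and 3.48 against 168.7 CPM. The value of 3.48 CPM is 1 UMI. The 6-week call was lost without control male 1 (edgeR adjusted p = 0.158), control male 2 (0.116), DN female 2 (0.0978) or DN male 2 (0.0769), and the 12-week call without control male 1 (0.0588). At 6 weeks it was also lost with Scrublet's doublets left out in place of marker doublets (0.072) and with no doublet removal (0.06).

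Tagln, an early marker of smooth muscle differentiation, was higher in DN as well. Its 6-week values were 6.64, 51.0, 4.36 and 20.2 CPM in control and 53.3, 165.0, 120.2 and 140.2 CPM in DN. At 12 weeks they were 3.48, 30.2, 6.74 and 22.4 CPM in control and 40.4, 108.1, 111.4 and 118.0 CPM in DN. The genotypes did not overlap at either age, although DN female 1 at 6 weeks exceeded control female 2 by little. The log2 difference was 2.54 ± 0.57 at 6 weeks, which missed the threshold (edgeR adjusted p = 0.0695), and 2.52 ± 0.53 at 12 weeks, which passed it (edgeR adjusted p = 0.0111). With the replicate block both passed (2.62, edgeR adjusted p = 5.243e-05, and 2.65). The 6-week difference also passed without control female 2 (edgeR adjusted p = 0.0207) or DN female 1 (0.0218), and the 12-week call was lost without control male 1 (0.083), control male 2 (0.0516) or DN female 2 (0.0547), and when cells were chosen by a marker gate in place of clusters (1.98, 0.0817).

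**Figure D2:**
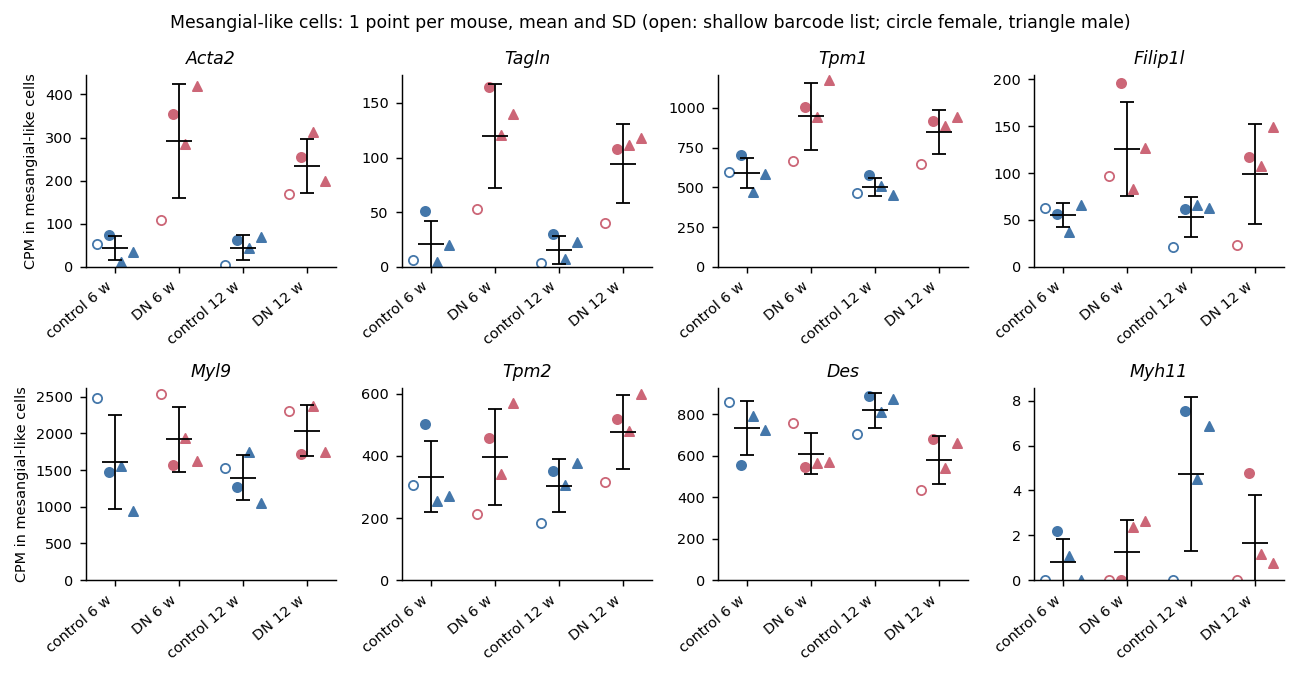
CPM of 8 members in mesangial-like cells by genotype and age; each point is 1 mouse (circle female, triangle male, open for the shallow libraries) and bars give the mean and SD of 4 mice. Acta2 in DN lies between 109.8 and 418.8 CPM at 6 weeks, above all control values, which reach 74.9.

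Of the tropomyosins and Filip1l, Tpm1 at 12 weeks passed the test. Tpm1 was 594.7, 701.5, 469.5 and 586.9 CPM in control and 668.2, 1005, 939.3 and 1173 CPM in DN at 6 weeks, and 466.9, 578.2, 507.6 and 454.8 against 643.8, 915.3, 886.9 and 939.6 CPM at 12 weeks. The genotypes overlapped at 6 weeks (0.71 ± 0.20 on the log2 scale, edgeR adjusted p = 0.18) and did not at 12 weeks (0.80 ± 0.20, edgeR adjusted p = 0.032). With the block the 6-week difference passed as well (0.72, edgeR adjusted p = 0.00156), as it did in the 12 deep libraries (0.88, edgeR adjusted p = 0.028), while the 12-week call was lost without any 1 of 6 libraries (control female 1, control males 1 and 2, DN female 2 and DN males 1 and 2), with edgeR adjusted p from 0.0799 to 0.153, and without cells carrying smooth muscle or renin markers (0.81, edgeR adjusted p = 0.106).

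Filip1l did not overlap at 6 weeks, from 37.0 to 65.8 CPM in control and from 82.7 to 196.2 in DN, and overlapped at 12 weeks because DN female 1 had 23.8 CPM. Its log2 difference was 1.24 ± 0.35 and 0.91, neither past the threshold (edgeR adjusted p = 0.19 and 0.21), but both passed with the replicate block (edgeR adjusted p = 0.000113 and 6.441e-05) and in the 12 deep libraries (1.40, edgeR adjusted p = 0.0183, and 1.00, edgeR adjusted p = 0.0134). Without the shallow DN female 1 the 12-week difference was 1.11 (edgeR adjusted p = 0.0287). Tpm2 overlapped at both ages, with means of 333 ± 115 and 397 ± 154 CPM at 6 weeks and 305 ± 85.6 and 478 ± 119 at 12 weeks (SD, n = 4). It differed by 0.30 and 0.68 on the log2 scale (edgeR adjusted p = 1.0 and 0.32), and only the 12-week value passed with the block (edgeR adjusted p = 0.00327).

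Myl9 and Des did not pass the test at either age. Myl9 averaged 1613 ± 643 CPM in control and 1920 ± 444 in DN at 6 weeks, and 1399 ± 303 and 2039 ± 347 at 12 weeks (SD, n = 4), with overlap at both ages. Its log2 differences of 0.31 and 0.60 did not pass (edgeR adjusted p = 0.98 and 0.35), although the 12-week value did with the block (edgeR adjusted p = 0.000765). Des was the only tested member with negative log2 differences at both ages: it was 703.8, 889.3, 812.0 and 872.7 CPM in control and 432.3, 680.9, 540.7 and 662.1 CPM in DN at 12 weeks, without overlap. The log2 difference was −0.46 at 12 weeks and −0.25 at 6 weeks (edgeR adjusted p = 0.32 and 0.96), and −0.46 passed with the block (edgeR adjusted p = 0.00212). Cnn1, Myh11 and Actg2 fell under the edgeR filter on low counts in mesangial-like cells. With 2 Cnn1 UMIs and 1 Actg2 UMI in the class, no test could tell the genotypes apart for these genes. Over the library sums the difference of Myh11 did not pass (exact permutation p = 0.5). Myh11, with 30 UMIs in each genotype, lay between 0 and 7.6 CPM in all 16 libraries.

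In all, 7 of the 10 members passed the filter on low counts in mesangial-like cells. Of these, 1 was called at 6 weeks, beside 0.352% of all genes, and 3 at 12 weeks, beside 3.18%, all higher in DN. All 4 DN libraries lay above all 4 control libraries for 3 members at 6 weeks, against 1.71% of genes, and for 3 at 12 weeks, against 3.95%; all 4 lay below for 1 member (Des) at 12 weeks, against 4.06%. DESeq2 called 3 members at each age, beside 1.07% and 4.35% of all genes, and the block called 4 and 7, beside 4.17% and 12.9%. The median log2 difference over the 7 was 0.71 and 0.80, beside a median of −0.0097 and −0.0013 over all 9362 genes.

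**Figure D3:**
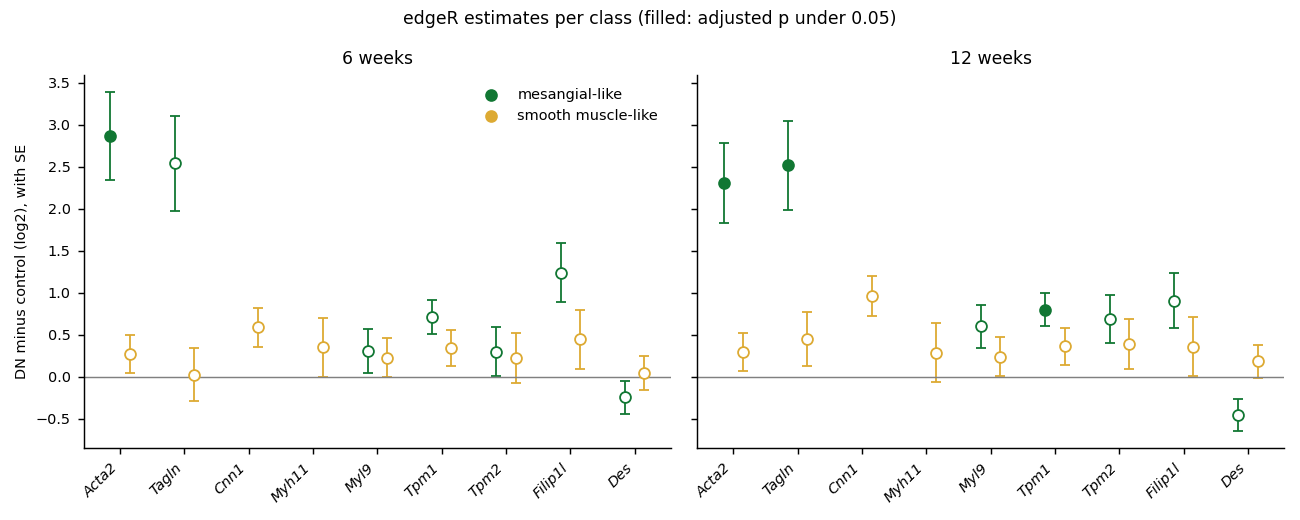
Log2 difference (DN minus control) of each tested member in mesangial-like and smooth muscle-like cells at 6 and 12 weeks. Bars give 1 SE derived from the F of edgeR's test, and filled points mark an adjusted p under 0.05. In mesangial-like cells Acta2 and Tagln lie above 2 at both ages, and in smooth muscle-like cells Acta2 lies at 0.27 and 0.30.

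Acta2 was carried by a minority of mesangial-like cells in both genotypes. A UMI of Acta2 was found in 107 of 1580 control cells (6.77%) and 698 of 2446 DN cells (28.5%). If the same UMIs had been spread evenly in proportion to each cell's depth, 18.2% and 62.8% of cells would have carried one. The observed shares were 0.37 and 0.45 of those values, whereas for Myl9, Tpm1, Tpm2, Filip1l and Des the observed share was between 0.88 and 0.95 of the even one. The 10% of DN cells with most Acta2 held 81.3% of its UMIs, and 1 cell held 79. Counts over cells, here and below, pool the 8 libraries of a genotype. Per library, the share of cells with an Acta2 UMI ran from 0.909% to 15.3% in control and from 10.5% to 38.8% in DN. These ranges overlapped, with 15.3% in control female 2 and 10.5% in DN female 1, both at 6 weeks.

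Among DN cells with the gene, 246 had 1 UMI, 100 had 2, 135 had 3 to 5, 100 had 6 to 10 and 117 had more than 10, so the carriers ran from traces to high counts without a gap in these bins. Control carriers numbered 62, 14, 14, 9 and 8 in the same bins. Tagln was found in 63 control cells (3.99%) and 524 DN cells (21.4%), at 0.50 and 0.52 of the even share. Not thinned, Myl9 was found in 86.0% and 89.0% of cells, Des in 79.7% and 77.2%, Tpm1 in 72.0% and 80.5%, Tpm2 in 59.1% and 66.5%, and Filip1l in 19.3% and 37.3%. Myh11 was seen in 14 control and 23 DN cells, Cnn1 in 0 of 1580 control cells, which allows a share of up to 0.19% with a UMI, and in 2 DN cells, and Actg2 in 1 DN cell.

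**Figure D4:**
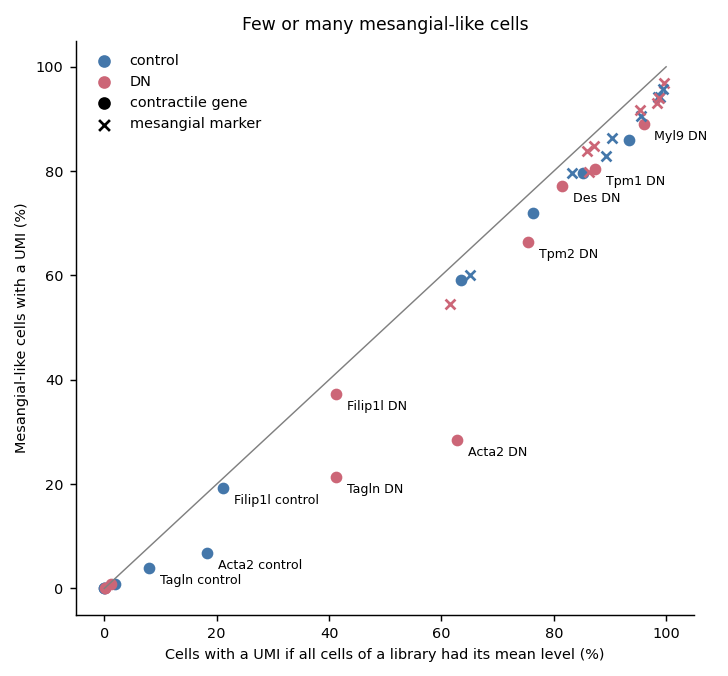
Observed share of mesangial-like cells with at least 1 UMI (vertical axis, percent) against the share if the UMIs of a library were spread evenly over its cells by depth (horizontal axis, percent), for the members (circles) and mesangial markers (crosses) in control and DN; the line marks equal values. Acta2 and Tagln fall below the line, at 28.5% against 62.8% for Acta2 in DN, and Myl9, Tpm1 and Des lie close to it.

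DN cells were deeper, with median UMIs of 4538 and 4769 at the 2 ages against 3204 and 3585 in control. The shares were therefore also taken after thinning each cell of at least 1000 UMIs to 1000 UMIs, and shallower cells were left out. This kept 488 of 531 and 918 of 1049 control mesangial-like cells at 6 and 12 weeks, and 741 of 828 and 1414 of 1618 DN ones. Of 18212 control tubule-like cells at 6 weeks it kept 11102. The thinned share of mesangial-like cells with an Acta2 UMI was 2.65 ± 1.94% in control and 13.2 ± 4.58% in DN (SD, n = 8). The difference of 10.6 points was in the same direction in 8 of 8 same-numbered pairs (exact permutation test, two-sided, p = 0.001543, the smallest that 1296 arrangements allow). Not thinned, the difference was 20.5 points (exact permutation p = 0.00463). Means were 2.77% and 14.8% at 6 weeks and 2.54% and 11.6% at 12 weeks, each at the smallest p that 36 arrangements allow (exact permutation p = 0.0556). Thinned shares of the other members were 1.83% in control and 6.87% in DN for Tagln, 39.6% and 52.9% for Tpm1, 25.8% and 30.6% for Tpm2, 5.32% and 9.89% for Filip1l, 70.2% and 78.6% for Myl9 and 51.4% and 42.8% for Des, as means of 8 libraries without a test. For Tagln, podocyte-like cells had thinned shares of 3.47% in control and 3.77% in DN, endothelial-like cells 0.587% and 0.839%, and tubule-like cells 0.346% and 0.334%. The control mesangial Tagln share thus lay below the podocyte-like one, and at 6 weeks the DN shares were 7.80 ± 2.85% in mesangial-like (SD, n = 4) and 6.05 ± 3.10% in podocyte-like cells (SD, n = 3), within their spread. The Acta2 background was read from other classes: endothelial-like cells, with median UMIs from 2840 to 3649, had thinned shares of 2.59% and 2.35% in control and 3.74% and 4.78% in DN, and tubule-like cells had between 0.50% and 0.78%. The control mesangial share thus lay near the endothelial-like share and above the tubule-like share, and the DN share lay above both; whether the endothelial-like share is free RNA or RNA of those cells was not tested. In smooth muscle-like cells the thinned share was between 97.3% and 98.3% in every group.

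**Figure D5:**
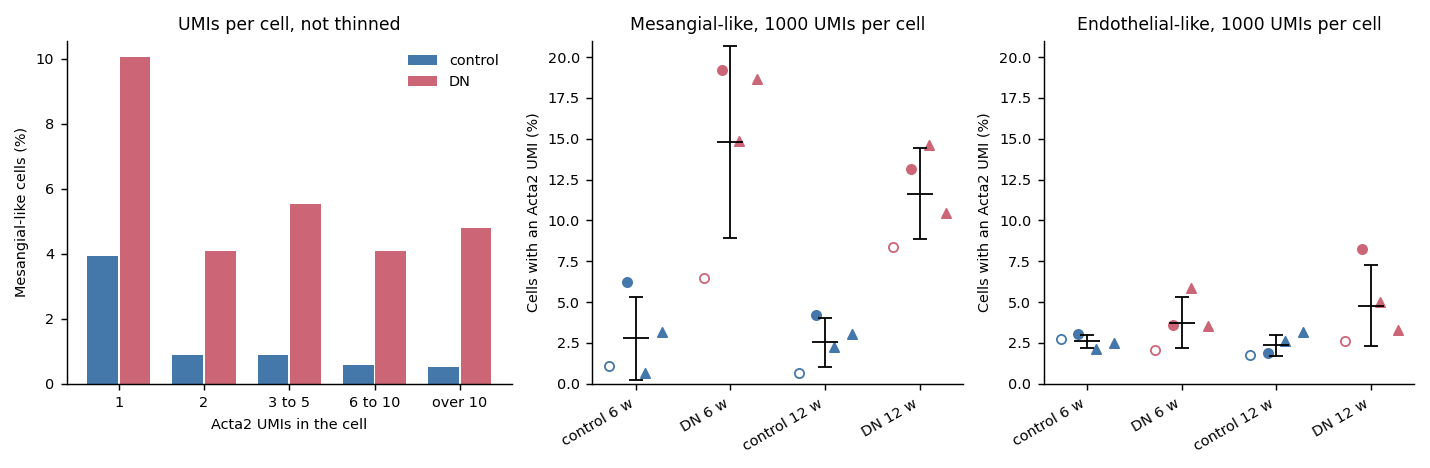
Left, the percentage of mesangial-like cells by Acta2 UMI count, not thinned; middle and right, the percentage of mesangial-like and endothelial-like cells with an Acta2 UMI after thinning to 1000 UMIs, with 1 point per mouse (circle female, triangle male, open for the shallow libraries) and the mean and SD of 4 mice. The mesangial mean is 2.77% and 14.8% in control and DN at 6 weeks, and the endothelial means stay at or below 4.78%.

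Cells with more Acta2 also carried more Tagln, Tpm1, Tpm2, Myl9 and Filip1l. Among cells of at least 1000 UMIs, 348 DN and 30 control cells had 3 or more Acta2 UMIs, and 1477 and 1311 had none. Between none and 3 or more, Tagln went from 33.4 to 314 CPM in DN and from 6.56 to 339 CPM in control, Tpm1 from 769 to 1345 and from 513 to 1063, and Tpm2 from 369 to 736 and from 316 to 697. Myl9 went from 1776 to 2373 CPM in DN, Filip1l from 110 to 137 with 107 in cells of 1 or 2 UMIs, and Des from 614 to 544, while Cnn1 and Actg2 were at 0 in both. Of the mesangial markers in DN, the integrin Itga8 went from 2260 to 1831 CPM, Gata3 from 767 to 640, Ptn from 3381 to 3209 and the protease inhibitor Serpine2 from 5433 to 5542. Some markers of other cells were higher with Acta2: in DN, Ren1 went from 25.5 to 210 CPM, Akr1b7 from 2.21 to 15.96, Dcn from 59.4 to 126 and Rgs5 from 311 to 410. Others were not: Notch3 went from 124 to 116 CPM, Mustn1 from 36.7 to 34.6, Rergl from 0.37 to 0.25 and the endothelial Pecam1 from 4.18 to 3.74. The sparse smooth muscle markers Map3k7cl and Olfr558 went from 1.23 to 3.49 and from 0 to 2.49 CPM, and the member Myh11 from 1.60 to 2.74. The 30 control cells held more smooth muscle genes, with Myh11 going from 1.09 to 74.0 CPM, Rgs5 from 172 to 904, Ren1 from 4.69 to 74.0 and Akr1b7 from 7.66 to 109. Cells without Acta2 already differed between genotypes in Tpm1, at 513 CPM in control and 769 in DN. Cells with 3 or more UMIs were deeper, with a median of 9401 UMIs in DN against 4487, and these values are a description over cells without a test.

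Markers of neighbouring cell types were measured in the same mesangial-like sums. Ren1, the renin gene, was higher in DN by 3.27 and 3.93 on the log2 scale, at up to 326.2 CPM, and Dcn, a fibroblast gene, by 2.01 and 2.14. Ren1 reached at most 34.75 CPM in control at 6 weeks and 6.87 at 12 weeks. Ren1 thus passed the filter on low counts through the DN sums, and its calls are not read as a result. Summed renin markers ranged from 246 to 576 CPM in control and from 584 to 1110 in DN at 6 weeks, and from 282 to 435 and from 562 to 834 at 12 weeks. The largest means in that list were those of Npr3 and Crip1, at 268 and 270 CPM in DN at 12 weeks. Akr1b7 went the other way, with means of 12.2 CPM in control and 7.54 in DN at 6 weeks, and 13.3 and 7.39 at 12 weeks. Gja4 averaged 25.2 and 27.6 CPM at 6 weeks and 30.9 and 20.1 at 12 weeks. Summed smooth muscle markers overlapped, from 461 to 769 and from 463 to 1195 CPM at 6 weeks and from 491 to 636 and from 523 to 722 at 12 weeks. Of these smooth muscle markers, Rergl, Map3k7cl, Olfr558 and Nrip2 had group means of at most 4.34 CPM, and Mustn1 and Rasl12 were lower in DN at 12 weeks (−1.27 and −1.18 on the log2 scale, edgeR adjusted p = 0.0139 and 0.0206). Rgs5, on the same list, differed by 0.60 and 1.12 at the 2 ages (edgeR adjusted p = 0.771 and 0.0627). Its ranges overlapped at 6 weeks, from 110.0 to 389.6 CPM in control and from 181.5 to 881.5 in DN. At 12 weeks they did not, from 148.2 to 241.7 CPM in control and from 304.2 to 503.6 in DN. All 4 DN libraries lay above all 4 control libraries for 3.95% of genes at that age. Summed fibroblast markers also overlapped, from 106 to 268 and from 169 to 255 CPM at 6 weeks, and Clec3b was at 0 in every library. Unlike Dcn, Col1a2 averaged 53.7 CPM in control and 40.7 in DN at 6 weeks, and 71.8 and 47.8 at 12 weeks.

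The ratio of other muscle genes to Acta2 differed between classes. Per 100 Acta2 UMIs, DN mesangial-like cells held 40.3 of Tagln, 0.689 of Myh11, 0.046 of Cnn1 and 30.2 of Ren1. Smooth muscle-like DN cells held 77.3, 34.97, 4.35 and 73.3, tubule-like DN cells 46.7, 22.2, 4.41 and 73.4, and endothelial-like DN cells 15.3, 1.76, 0.402 and 5.12. A low share of Myh11 and Cnn1 was thus found in endothelial-like cells too. Control mesangial-like cells held 40.1 of Tagln, 8.36 of Myh11 and 18.7 of Ren1 per 100 Acta2 UMIs, and control smooth muscle-like cells held 32.6 of Ren1. When cells with a UMI of any of 7 muscle and renin markers that are near 0 in the class were left out (101 control and 243 DN cells), Acta2 still differed by 3.08 at 6 weeks (edgeR adjusted p = 0.045) and 3.24 at 12 weeks (edgeR adjusted p = 0.0044). A wider exclusion of cells with smooth muscle or renin markers removed between 41.7% and 47.6% of mesangial-like cells per group, and gave 3.16 (edgeR adjusted p = 0.398) and 2.71 (edgeR adjusted p = 0.049). Whether depth or the remaining renin marker RNA had a part in the result was not tested.

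No member was called for age. None of 9362 genes was called by edgeR between 12 and 6 weeks in control or in DN mesangial-like cells. Nor was any called for a DN effect that differed between ages or between the sexes. DESeq2 called 0 members in each. In edgeR 225, 203, 141 and 139 genes had an unadjusted p under 0.05, less than the share of 0.05 that tests without any effect would give. The lack of calls thus does not show that the ages or sexes were alike. The Acta2 effect at 12 weeks minus that at 6 weeks was −0.56 ± 0.70, and the effect in males minus that in females was 1.07 ± 0.65 (log2, SE), both smaller than 2 SE. For Tagln the effect in males minus that in females was 1.64 ± 0.77 (log2, SE), which is over 2 SE but was not called (edgeR unadjusted p = 0.0507, adjusted p = 1.0). All 4 shallow libraries were female, so sex and depth overlap in part.

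In smooth muscle-like cells the log2 difference of Acta2 was 0.27 at 6 weeks and 0.30 at 12 weeks. edgeR called no member at either age, with 0.0393% and 0.223% of 7629 genes called (0.0262% and 0.21% higher in DN). At unadjusted p under 0.05 edgeR had 1 member at each age, and DESeq2 called 0 and 1. The nearest was Cnn1, which was 344.4, 324.0, 437.9 and 330.6 CPM in control and 644.6, 922.3, 606.8 and 526.5 CPM in DN at 12 weeks, without overlap. It differed by 0.96 ± 0.24 on the log2 scale (edgeR adjusted p = 0.11; with the replicate block, adjusted p = 6.611e-06 and 3.19% of genes called), and by 0.59 at 6 weeks (adjusted p = 0.018 with the block). At 12 weeks it was called by DESeq2 (adjusted p = 0.0187), and by edgeR with Scrublet doublets left out (1.06, adjusted p = 0.031), with clusters at resolution 2.0 (1.18, 0.0405) and without the filter on low counts (0.97, 0.0164). The 12-week sums of DN held more of the Ndufa4l2-rich, Cnn1-poor cells (49.2% to 53.6%, against 31.6% to 43.6% in control), and the part of this make-up in the smooth muscle-like values and in the class difference was not tested. With the block Filip1l at 6 weeks (0.46) and Tagln and Tpm1 at 12 weeks (0.41 and 0.36) passed too, beside 1.11% and 3.19% of genes. Actg2 was 15.4, 7.47, 5.09 and 3.40 CPM in control and 13.0, 27.8, 39.1 and 77.5 in DN at 6 weeks; it was below the filter with all 16 libraries. The 4 DN libraries at 6 weeks held 168 Actg2 UMIs, against 18 in control at 6 weeks and 9 in each genotype at 12 weeks. Under settings in which it passed the filter it did so with the group where it was high, so its calls are not read as a result.

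The DN effect itself differed between the classes for Acta2 and Tagln. The mesangial-like effect exceeded the smooth muscle-like one, taken within libraries and averaged over ages, by 2.29 ± 0.17 on the log2 scale for Acta2 and 2.39 ± 0.19 for Tagln in edgeR, where 4.37% of 9676 genes were called. That fit counts both sums of a library and its p-values ran far below those of 1 difference per library. With 1 difference per library, limma gave 2.50 for both (adjusted p = 0.0447 and 0.00682), and an exact permutation test gave p = 0.001543 for each, the smallest possible. edgeR also called Tpm1 (0.37), Filip1l (0.67) and Des (−0.47). Those 3 were not called by limma, with exact permutation p of 0.0108, 0.00926 and 0.0201 (two-sided, not adjusted).

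In the remaining classes 1 member was called. Tpm1 in podocyte-like cells was 236.9, 243.9, 210.0 and 255.1 CPM in control and 563.9, 706.7, 332.2 and 489.6 CPM in DN at 12 weeks, without overlap. The 2 highest values came from few cells, 10 in DN female 1 and 31 in DN female 2. It was higher by 1.10 ± 0.25 on the log2 scale (edgeR adjusted p = 0.0487, with 0.439% of 6838 genes called and 0.38% called higher). That call was lost when Scrublet doublets were left out (0.83, edgeR adjusted p = 0.369) or no doublets were removed (0.84, 0.314). It was also lost when 1 library was left out, unless that was control female 1, control male 2 or DN male 1 at 6 weeks or DN male 1 at 12 weeks (edgeR adjusted p up to 0.447, without DN female 2 at 12 weeks). DN female 1 at 6 weeks had 9 podocyte-like cells and was not in the fit. With the block, under which 2.24% and 2.54% of genes were called, podocyte-like Tpm1 passed at both ages (0.57 and 1.08), and so did Acta2 and Tagln at 6 weeks, lower in DN (−1.69 and −1.82, edgeR adjusted p = 0.00269 and 0.00377). Without the block these 6-week values were −1.73 and −1.63 (edgeR adjusted p = 0.9997 and 0.99), and at 12 weeks they were 0.84 and 1.38, also not called. Podocyte-like levels varied widely, from 0 to 432.3 CPM for Acta2 and from 0 to 428.3 for Tagln over 15 libraries. Podocyte-like cells of both ages held 399 Ren1 and 168 Myh11 UMIs in control against 7 and 52 in DN. Those counts came from unequal numbers of cells, 215 and 697 in control and 134 and 127 in DN at 6 and 12 weeks. Per 100 Acta2 UMIs, control held 85.44 of Ren1 and 35.97 of Myh11, and DN held 6.481 and 48.15. Ren1 was thus lower in DN on that scale and Myh11 was not. The part of Ren1 and Myh11 carrying RNA in the Acta2 and Tagln values was not tested. Endothelial-like cells had no call among 10098 genes at either age. At unadjusted p under 0.05 edgeR had 229 and 477 genes there, with 1 and 0 members, and DESeq2 called 0 members. With the block, under which 0.515% and 2.75% of genes were called, Tagln at 6 weeks (1.96, edgeR adjusted p = 0.00257) and Filip1l at 12 weeks (0.64, edgeR adjusted p = 0.0174) passed. No member was called in renin-like cells at 6 weeks, where 0.274% of genes were, or in tubule-like cells, where 0.0527% and 0.969% were, and 0 members had an unadjusted p under 0.05 there in edgeR or DESeq2. Renin-like cells at 12 weeks were too few to test.

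Other genes of contraction were read in mesangial-like cells from 5 gene lists. Of 16 further contraction genes 12 were tested. Of these, 1 was called at 6 weeks and 2 at 12 weeks, beside 0.352% and 3.18% of all genes. Lmod1, the leiomodin that starts actin filaments in smooth muscle, was higher in DN at both ages. It went from 2.98 ± 3.36 to 30.0 ± 16.7 CPM at 6 weeks (SD, n = 4, log2 difference 3.35). At 12 weeks it went from 4.03 ± 0.82 to 22.4 ± 5.91 CPM (2.57). With control levels this low, Lmod1 passed the filter on low counts through the DN sums, so its calls are not read as a result. Ppp1r14a, an inhibitor of myosin phosphatase, rose at 12 weeks from 9.27 ± 4.41 to 43.5 ± 8.48 CPM (2.25, edgeR adjusted p = 0.0035). The median log2 difference of the 12 was 0.20 and 0.10, so these were exceptions in the list.

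Of the other lists, 1 of 13 actin-binding and focal adhesion genes was called, at 12 weeks, beside 3.18% of all genes. A single call is not read as a result about the list. It was Fhl1, a LIM-domain protein, which went from 77.5 ± 22.8 to 152 ± 5.28 CPM (1.00, edgeR adjusted p = 0.0038). None of the 13 non-muscle counterparts of the members, such as Actb and Myh9, was called, beside 0.352% and 3.18% of all genes at the 2 ages. Their median log2 differences were 0.26 and 0.39. Srf, the gene of SRF, and its cofactors Mkl1 and Mkl2 were not called. Their log2 differences at the earlier and later age were 0.37 and 0.01 for Srf, 0.33 and 0.35 for Mkl1, and 0.09 and 0.49 for Mkl2. Myocd, the smooth muscle cofactor, was at mean levels from 1.10 to 2.34 CPM and was not tested. Of 9 tested genes known to respond to dissociation, only Fos was called, at 12 weeks (2.11, edgeR adjusted p = 0.036), beside 3.18% of all genes. Fos averaged 22.6 ± 7.15 CPM in control and 88.3 ± 96.6 in DN (SD, n = 4), so it was uneven over the DN mice. The median log2 differences over the list were 1.11 and 0.64, and the part of this response in the members' values was not tested.

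Across the 16 mesangial-like sums, the member most like Acta2 was Tagln (Pearson r = 0.92 on log2(CPM + 1)), followed by Tpm1 at 0.86, Tpm2 at 0.75 and Filip1l at 0.75, with Des at −0.54. The 5 non-members with the highest r among 6700 ranked genes were Endod1 (0.93), Map4k3 (0.91), H2-Q7 (0.90), S100a11 (0.89) and Cx3cl1 (0.89). These sums share the split between genotypes. After group means were removed, Tagln had an r of 0.83, Tpm2 0.73, Filip1l 0.69 and Tpm1 0.67, while Des was at 0.048 and Myl9 went from 0.33 to −0.57. The 5 leading genes were then others: Vezf1 (0.96), Paics (0.96), Plcg1 (0.96), Dync1li2 (0.96) and Yy1 (0.96). These correlations describe libraries that also share depth and barcode list.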

How the data were processed

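Single-cell UMI counts per gene were deposited by the authors as unnormalised matrices of whole numbers. The submitters' processing notes name Cell Ranger 3.0.2 and mm10. Each library came from 1 mouse, so p-values compare mice.

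Barcodes with 200 to 7000 genes and at most 50% mitochondrial UMIs were kept (94436 of 116439). Clusters used 2000 variable genes without the members or listed genes, 30 principal components, a Harmony correction, 20 neighbours and Leiden resolution 1.0 (51 clusters; scanpy 1.11.5, leidenalg 0.10.2, igraph 0.11.9, numpy 2.4.6, scipy 1.17.1, Python 3.11.15). A cluster took the class of at least 3 markers in at least 10% of its cells and over 2-fold enriched; these thresholds were set after the clusters were seen. Cells that mixed tubule with non-tubule markers (7979) were removed as doublets. Non-tubule cells above 20% mitochondrial UMIs were removed as well. Mesangial-like cells were not removed for carrying smooth muscle or renin markers, and leaving those cells out was an alternative. Scrublet, which marked 1857 cells, served as an alternative.

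Counts were summed per library and class where at least 10 cells were present and tested with edgeR 4.0.16 (R 4.3.3; TMM, filterByExpr minimum 10, quasi-likelihood test) with age, sex within age and genotype within age. p-values were adjusted by Benjamini-Hochberg over all genes tested, with a threshold of 0.05. The method was tested on simulated data. Between replicates, counts differed by more than sampling noise (chi-square over its degrees of freedom from 3.71 to 13.7), so no library was a duplicate. Deviations of same-numbered DN and control mice correlated at 0.27 to 0.50 in the 4 sex and age groups, and the number was used as a block in an alternative. With 2 mice per group, each correlation rests on 1 deviation per genotype. In females number 1 was also the shallow library, and the labels name no pairing or batch. The class difference was refitted in limma with 1 value per library, and shares of cells were compared by exact permutation within sex and age. Intervals and limits for a count of 0 cover counting error only.

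Named genes were the 10 members, the 4 SRF genes, the called genes of 5 lists (at most 8, of which 4 were called), and the 5 genes most like Acta2. The members and lists were chosen with earlier results of these data known. The alternatives were DESeq2 1.42.0, no filter, the block, the 12 deep libraries, leaving out each library, other doublet handling, resolution 2.0, a marker gate and cells without muscle or renin markers. Chosen after seeing the data were clusters with a median of at least 1000 UMIs, cells without 7 near-zero markers, and limma.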

Additional observations from a re-analysis of the deposited data

Results flagged for a closer look

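Single libraries that stood apart from the other 3 of their group were found in 7 of 84 groups tested, where chance alone flags about 1 in 20. In mesangial-like cells, Tagln in DN female 1 at 12 weeks was 40.4 CPM, with the others from 108.1 to 118.0. Filip1l in control female 1 at 12 weeks was 20.9 CPM, with the others from 61.8 to 66.3, and Des in DN female 1 at 6 weeks was 759.1 CPM, with the others from 547.0 to 570.8. These 3 were shallow libraries. Cnn1 was 0.437 CPM in DN male 2 at 6 weeks and 0.397 CPM in DN female 2 at 12 weeks, and Actg2 was 0.437 CPM in DN male 2 at 6 weeks, each from 1 UMI with the other libraries at 0. In smooth muscle-like cells, Tpm2 in control female 1 at 12 weeks was 1994 CPM, with the others from 4462 to 4852.

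The DN effect differed between mesangial-like and smooth muscle-like cells in edgeR by 2.29 for Acta2, 2.39 for Tagln, 0.37 for Tpm1, 0.67 for Filip1l and −0.47 for Des on the log2 scale (mesangial minus smooth muscle). The differences of Acta2 and Tagln were also called with 1 value per library in limma, and those of the other 3 were not.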

How the results depend on the processing

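The count of members called in mesangial-like cells at 6 weeks was 1. It was 3 with DESeq2, 3 without a filter on low counts, 4 with the replicate block and 4 in the 12 deep libraries (0.676% of all genes called), and 0 with Scrublet doublets left out, 0 with no doublet removal and 0 without cells carrying smooth muscle or renin markers; leaving out 1 library gave 0 to 2. At 12 weeks the count of 3 became 5 without the filter, 7 with the block, 4 in the 12 deep libraries (4.23% of genes), 2 with cells chosen by a marker gate and 2 without marker-carrying cells, and leaving out 1 library gave 0 to 4, with 0 without control male 1. Without the filter 1.2% and 3.33% of all genes were called in mesangial-like cells at the 2 ages, and with the block 4.17% and 12.9%. Over the other 5 classes the 6-week count of 0 became 5 without the filter (0.109% to 0.611% of all genes called per class), 6 with the block (0.105% to 2.24%), 1 (Actg2 in smooth muscle-like cells) in the 12 deep libraries and with Scrublet, and 1 (Actg2 in renin-like cells) with no doublet removal and at resolution 2.0. Leaving out 1 library gave 0 to 1. Calls of Actg2 are part of these 6-week counts but are not read as a result, for the reason given above. The 12-week count of 1 became 2 with DESeq2, 3 without the filter (0.542% to 0.986% of genes), 5 with the block (2.54% to 11.9%), 2 at resolution 2.0 and 0 with no doublet removal; leaving out 1 library gave 0 to 1. For the class difference the count of 5 (4.37% of genes called) became 2 without marker-carrying cells (2.25%) and 2 with 1 difference per library in limma (0.537%); leaving out 1 library gave 3 to 5. The counts for age, sex and the change of the DN effect with age were 0 under every alternative run. The difference in the share of cells with an Acta2 UMI stayed positive, from 9.71 to 11.5 points when 1 library was left out, 6.33 and 16.3 points at 500 and 2000 UMIs, and 7.87 points without marker-carrying cells (exact permutation p = 0.00926). Without those cells Tpm2 turned to −0.21 at 6 weeks and −0.11 in the class difference. The block changed no call of a member beyond those given with it above. The cause of these changes was not tested. Cnn1, Myh11 and Actg2 lay under the filter in mesangial-like cells, and without it edgeR called none of them (Myh11 at 12 weeks was −1.44, unadjusted p = 0.0217, adjusted p = 0.334).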

Other observations

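The higher Cnn1 of DN smooth muscle-like cells at 12 weeks was also read within the sub-clusters, without a test. In cells poor in Ndufa4l2 it ranged from 448.1 to 586.5 CPM over 4 control libraries and from 899.3 to 1272 CPM over 4 DN libraries, without overlap. In Ndufa4l2-rich cells the ranges overlapped, from 20.7 to 54.4 CPM in control and from 22.6 to 118.7 CPM in DN. Acta2 overlapped in both sets, from 11340 to 22100 and from 12240 to 21060 CPM in the poor set and from 5050 to 6966 and from 6022 to 9979 CPM in the rich set.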
